A study of Mus musculus with 8 samples.

Results

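Kupffer cells are the macrophages that live in the liver, and 10 genes that mark them or macrophages in general were followed through RNA sequencing of mouse liver: Adgre1, Cd68, Clec4f, Vsig4, Marco, Csf1r, Cd5l, Timd4, C1qa and C1qb. These 10 were found by Ensembl identifier among the 38283 genes of the deposited table. Each had FPKM (fragments scaled by the length of the transcript and by the depth of the library) above 1 in at least 1 library, so all 10 were among the 11634 genes tested, and none was listed at 0 in any library. Only Marco went below 1, in 1 library.

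The livers came from male mice on a C57BL/6 background that all carried loxP sites around exons 4 and 5 of Rora, the gene of the nuclear receptor RORα. RORα f/f mice carried no Cre and RORα LKO mice also carried Alb-Cre, a recombinase driven by the albumin promoter, which is active in hepatocytes and not in macrophages. Mice of both genotypes were fed a control diet (CD) or a high-fat diet (HFD) for 10 weeks from 8 weeks of age. The 4 groups, f/f and LKO on each diet, had 4 mice and 2 libraries each, every library pooling the livers of 2 mice. Values of a group are given in the order replicate 1, replicate 2, and errors are SD over these 2 libraries.

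Kupffer cells line the liver sinusoids, where they take up bacteria, aged red cells, dying cells and lipoprotein debris from the blood. Most are seeded before birth and renew themselves in place under the growth factors CSF1 and IL-34, and monocytes from the blood can replace them when they are lost. Clec4f, Vsig4, Marco, Timd4 and Cd5l are used to recognise the resident cells in mouse liver, whereas Adgre1, Cd68, Csf1r and the C1q genes are shared with other macrophages.

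Rora itself was read first, as the check of the genotype labels. Its FPKM was 8.85 and 8.59 in the CD-fed f/f libraries, 7.96 and 8.18 in the CD-fed LKO libraries, 7.56 and 7.86 in the HFD-fed f/f libraries and 7.30 and 8.02 in the HFD-fed LKO libraries. The genotypes overlapped on HFD, where the difference on the log2(FPKM + 1) scale was 0.01 (SE 0.07), and a value over the whole gene does not read the deleted exons alone. The libraries are therefore called by their labels, LKO-labelled and f/f-labelled. Alb, which hepatocytes express abundantly, was listed at 0 in 4 of 8 libraries and between 29902 and 30888 in the other 4, so a 0 in this table can be a failed estimate. FPKM exceeded 1 for 10587 to 10706 genes per library.

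The 10 markers spanned about an order of magnitude in level. Mean FPKM over the 8 libraries was 27.2 for Clec4f and 24.3 for Cd5l, and 18.6 for C1qa, 17.7 for C1qb and 12.0 for Vsig4. It was 6.57 for Cd68, 6.32 for Csf1r, 3.47 for Marco, 3.27 for Timd4 and 2.74 for Adgre1. Clec4f, the most abundant, lay above 81.6% of the tested genes and Adgre1, the least abundant, above 26.7%. Of neighbours in this order, only Vsig4 and Cd68 had ranges over the 8 libraries that did not overlap. Cd5l exceeded C1qa, and C1qb exceeded Vsig4, within each of the 8 libraries, although their ranges overlapped. The order of Clec4f and Cd5l held in 6 libraries, that of C1qa and C1qb in 5 and that of Timd4 and Adgre1 in 6, while Cd68 exceeded Csf1r, and Marco exceeded Timd4, in only 3.

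For 7 of the 10 genes (Cd68, Clec4f, Vsig4, Marco, Cd5l, Timd4 and C1qb) RefSeq sequence before the transcription start was searched on GRCm38.p6. The search took the 250 bases before the start, on both strands, for 3 motifs of 6 letters. The remaining markers were not searched. GAGGAA is the core bound by PU.1, the factor that defines the macrophage lineage. It was present before the start of 5 of the 7 genes (Marco, Cd5l, C1qb, Cd68 and Vsig4) and of 23.2% of all 32851 promoters. AGGTCA, the half-site that RORα and other nuclear receptors share, was present in 2 of 7 (Clec4f and Timd4) and in 14.0% of all, and the E-box CACGTG in 0 of 7 and in 6.02%. A match says only that the letters occur in the window, and no binding was measured. Sequences of 4 genes are shown, 5′ to 3′ on the gene's strand and ending at the base before the start, because they hold between them both motifs found, with matches to the PU.1 or nuclear receptor letters on either strand in capitals.
Timd4 (chr11:46810549-46810798, plus strand): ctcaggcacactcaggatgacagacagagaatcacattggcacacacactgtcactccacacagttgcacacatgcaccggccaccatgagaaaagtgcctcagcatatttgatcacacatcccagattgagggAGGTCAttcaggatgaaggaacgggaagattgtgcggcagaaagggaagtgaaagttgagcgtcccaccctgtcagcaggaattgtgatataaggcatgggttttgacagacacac
Cd5l (chr3:87357631-87357880, plus strand): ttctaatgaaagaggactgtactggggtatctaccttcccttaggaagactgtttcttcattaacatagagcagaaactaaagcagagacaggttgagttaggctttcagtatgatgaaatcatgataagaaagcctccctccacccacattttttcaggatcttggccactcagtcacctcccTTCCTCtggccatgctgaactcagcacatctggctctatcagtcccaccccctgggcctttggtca
C1qb (chr4:136886201-136886450, minus strand): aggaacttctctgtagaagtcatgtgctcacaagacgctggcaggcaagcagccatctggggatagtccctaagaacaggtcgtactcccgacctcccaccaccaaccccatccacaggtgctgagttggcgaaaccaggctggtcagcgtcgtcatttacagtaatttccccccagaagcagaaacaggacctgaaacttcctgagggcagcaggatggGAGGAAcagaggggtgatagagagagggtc
Vsig4 (chrX:96293439-96293688, minus strand): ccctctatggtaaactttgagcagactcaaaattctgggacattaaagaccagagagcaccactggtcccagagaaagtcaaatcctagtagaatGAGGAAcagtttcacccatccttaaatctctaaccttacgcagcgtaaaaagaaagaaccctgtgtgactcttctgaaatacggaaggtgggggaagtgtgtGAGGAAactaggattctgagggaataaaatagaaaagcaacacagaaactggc
In Timd4 the capitals begin 116 bases before the start (AGGTCA). In Cd5l they begin at 66 bases (GAGGAA on the opposite strand), in C1qb at 30 bases and in Vsig4 at 155 and 53 bases (GAGGAA in both).

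Clec4f encodes a C-type lectin that binds galactose-bearing glycans and is restricted to Kupffer cells in the mouse. It lies on chromosome 6 from 83644542 to 83656187 on the minus strand (GRCm38, GENCODE M21). Its FPKM was 28.3 and 32.6 in the CD-fed f/f libraries, 25.2 and 30.6 in the CD-fed LKO-labelled libraries, 22.9 and 20.8 in the HFD-fed f/f libraries and 29.9 and 27.0 in the HFD-fed LKO-labelled libraries. The HFD-fed f/f libraries were the lowest pair and overlapped no other group. Vsig4 encodes a complement receptor that captures particles coated with C3 fragments (X, 96247203 to 96293438, minus strand). Its FPKM was 12.3 and 14.8 in CD-fed f/f, 12.2 and 10.9 in CD-fed LKO-labelled, 9.34 and 9.89 in HFD-fed f/f and 15.7 and 10.6 in HFD-fed LKO-labelled libraries. Here too both HFD-fed f/f libraries were below the other 6.

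Timd4 encodes TIM-4, a receptor for phosphatidylserine on dying cells that is borne by long-lived resident macrophages (chromosome 11, 46810800 to 46844332, plus strand). Its FPKM was 3.98 and 4.52 in CD-fed f/f, 3.30 and 2.97 in CD-fed LKO-labelled, 2.57 and 2.15 in HFD-fed f/f and 3.64 and 3.00 in HFD-fed LKO-labelled libraries. The CD-fed f/f pair lay above every other library and the HFD-fed f/f pair below every other library, with both LKO-labelled groups overlapping each other in between. Cd5l encodes AIM, a secreted protein of macrophages (chromosome 3, 87357881 to 87371073, plus strand). It stood at 21.6 and 33.9 FPKM in CD-fed f/f, 22.7 and 20.6 in CD-fed LKO-labelled, 22.6 and 18.7 in HFD-fed f/f and 31.5 and 22.6 in HFD-fed LKO-labelled libraries. One library of CD-fed f/f and one of HFD-fed LKO-labelled livers stood above the remaining 6, which lay within 18.7 to 22.7.

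C1qa and C1qb encode 2 of the 3 chains of C1q, the complement component that starts the classical pathway and that macrophages secrete. They lie with C1qc within 18675 bases of chromosome 4, C1qb from 136880129 to 136886187 and C1qa from 136895917 to 136898803, all on the minus strand. C1qa stood at 20.1 and 24.5 FPKM in CD-fed f/f, 18.6 and 16.6 in CD-fed LKO-labelled, 18.1 and 12.9 in HFD-fed f/f and 21.7 and 16.5 in HFD-fed LKO-labelled libraries. C1qb stood at 17.4 and 20.8 in CD-fed f/f, 17.0 and 16.7 in CD-fed LKO-labelled, 16.6 and 13.0 in HFD-fed f/f and 21.1 and 18.5 in HFD-fed LKO-labelled libraries. For C1qb the CD-fed LKO-labelled and HFD-fed f/f libraries were the 4 lowest, and for C1qa the HFD-fed f/f pair overlapped both LKO-labelled groups.

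Csf1r encodes the receptor of CSF1 and IL-34 on which Kupffer cells depend (chromosome 18, 61100598 to 61132149, plus strand). Its FPKM was 5.89 and 8.17 in CD-fed f/f, 5.48 and 6.16 in CD-fed LKO-labelled, 5.72 and 5.04 in HFD-fed f/f and 8.60 and 5.54 in HFD-fed LKO-labelled libraries. Its exons overlap those of Hmgxb3 on the opposite strand, and whether the counting used strand was not stated. Adgre1 encodes F4/80, the surface antigen by which mouse macrophages are usually stained (chromosome 17, 57358691 to 57483527, plus strand). It stood at 2.51 and 3.46 FPKM in CD-fed f/f, 2.03 and 2.16 in CD-fed LKO-labelled, 2.84 and 1.89 in HFD-fed f/f and 4.53 and 2.47 in HFD-fed LKO-labelled libraries. For both receptors replicate 1 of the HFD-fed LKO-labelled group was the highest of 8 and its partner was within the range of the other groups. Cd68 encodes macrosialin, a glycoprotein of lysosomes (chromosome 11, 69664213 to 69666153, minus strand). It stood at 5.79 and 7.25 FPKM in CD-fed f/f, 8.26 and 5.96 in CD-fed LKO-labelled, 5.77 and 4.27 in HFD-fed f/f and 7.91 and 7.34 in HFD-fed LKO-labelled libraries. The HFD-fed f/f libraries were the 2 lowest for Cd68, and both HFD-fed LKO-labelled libraries exceeded both f/f groups.

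Marco, a class A scavenger receptor that binds bacteria and modified lipoproteins (chromosome 1, 120474538 to 120505024, minus strand), behaved unlike the other 9. It stood at 2.37 and 3.34 FPKM in CD-fed f/f, 4.25 and 0.599 in CD-fed LKO-labelled, 5.31 and 1.12 in HFD-fed f/f and 9.71 and 1.09 in HFD-fed LKO-labelled libraries. Its highest value was 16.2 times its lowest, against 1.57 to 2.40 times for the other 9 markers. In the last 3 groups the libraries of 1 group differed 7.09-fold, 4.74-fold and 8.92-fold, a wider gap than for 99.9%, 99.8% and 99.96% of all tested genes with FPKM above 0 in both libraries. Its groups overlapped in the 4 pairwise comparisons, and its direction in each of them turned when 1 library was left out.

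**Figure D1:**
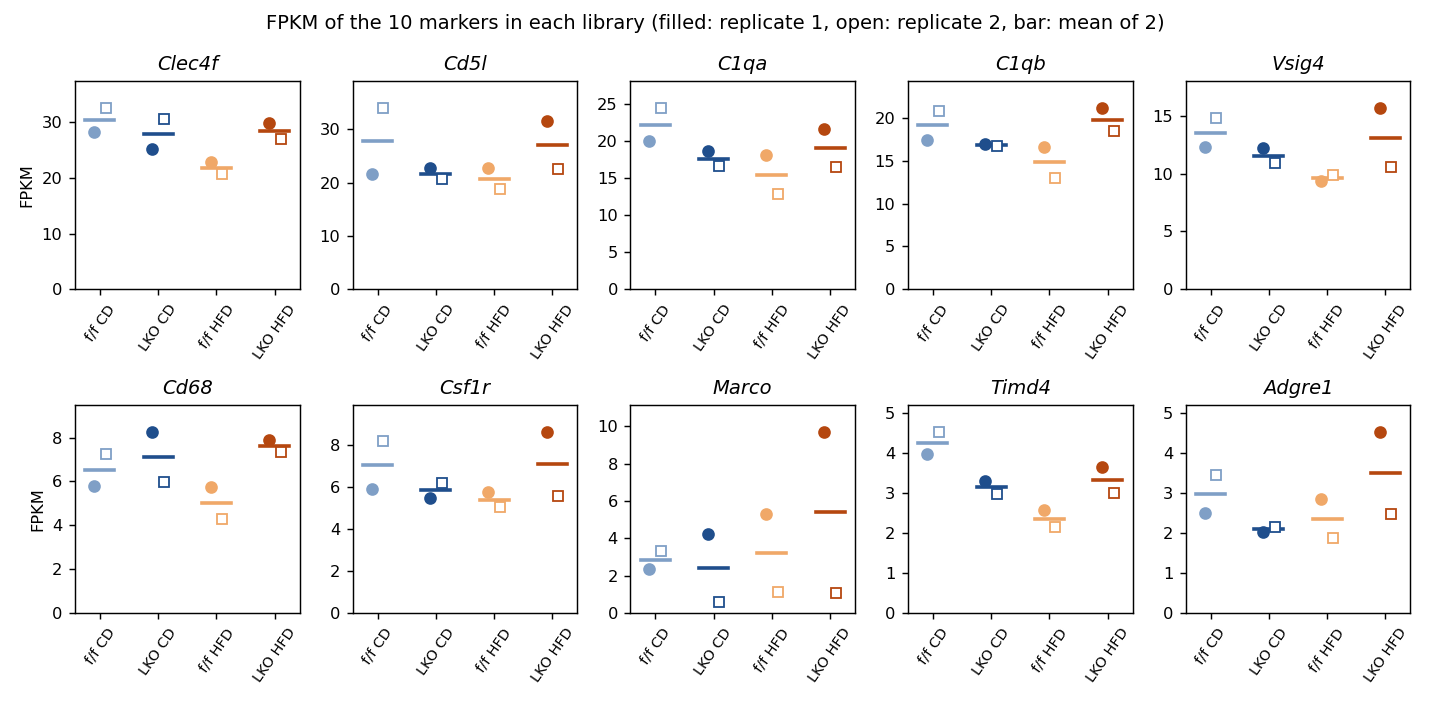
FPKM (vertical axis of each panel, starting at 0) of the 10 markers in the 4 groups, with replicate 1 as a filled circle, replicate 2 as an open square and the mean of the 2 as a bar. For Clec4f, Vsig4, Timd4, Cd68 and, by a small margin, C1qb both HFD-fed f/f libraries lie below all others. The 2 Marco values lie far apart in 3 of the 4 groups.

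Apart from Marco, the markers varied together from library to library. Replicate 2 of the HFD-fed f/f group held the lowest value of the 8 libraries for 8 of the 10 markers and lay below the 8-library mean for all 10. Replicate 1 of the HFD-fed LKO-labelled group lay above that mean for all 10 and held the highest value for 5, and replicate 2 of the CD-fed f/f group held the highest for 4. Expressed as a percentage of each marker's own 8-library mean, the median marker stood at 96.0 and 125 in CD-fed f/f, 98.2 and 90.9 in CD-fed LKO-labelled, 91.8 and 71.4 in HFD-fed f/f and 125 and 91.2 in HFD-fed LKO-labelled libraries. One HFD-fed LKO-labelled library was thus at the top, level with 1 CD-fed f/f library, and its partner among the middle ones. Because the markers of 1 library move together, 10 genes are not 10 separate observations of a group. In whole liver, fewer macrophages and less of these RNAs per macrophage cannot be told apart.

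**Figure D2:**
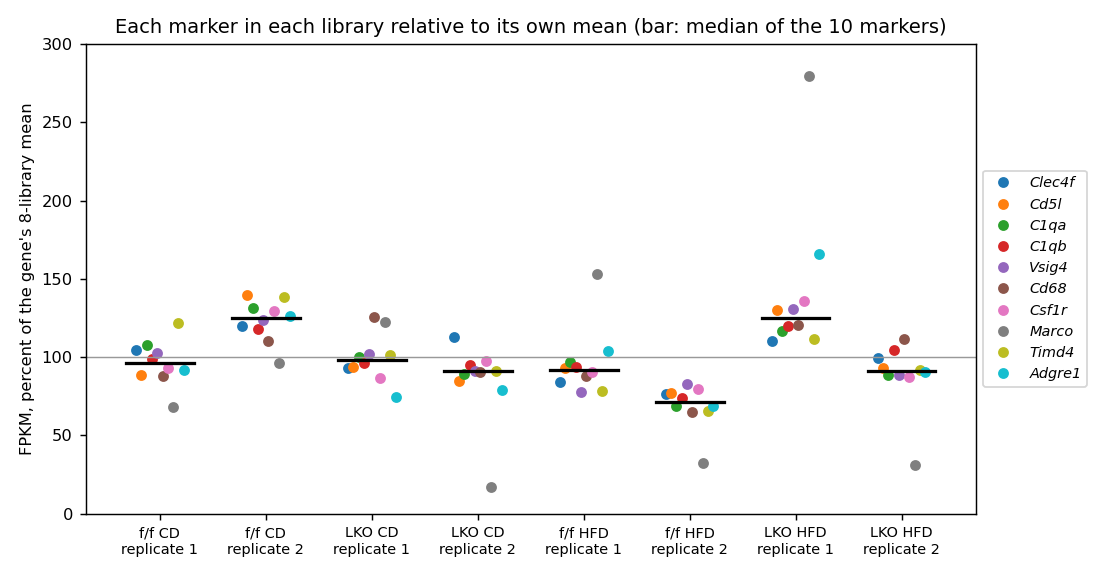
Each of the 10 markers in each of the 8 libraries as a percentage of its own mean over the 8 (vertical axis), with the median of the 10 as a black bar. The bars are highest, at 125, in replicate 2 of CD-fed f/f and replicate 1 of HFD-fed LKO, and lowest, at 71.4, in replicate 2 of HFD-fed f/f.

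Except in CD-fed LKO-labelled livers, the spread inside a group was wider for the median marker than for the median tested gene. The ratio of the higher to the lower library had a median over the 10 markers of 1.24 in CD-fed f/f, 1.12 in CD-fed LKO-labelled, 1.24 in HFD-fed f/f and 1.35 in HFD-fed LKO-labelled livers. Over all tested genes, which were not matched to the markers in level, the same medians were 1.11, 1.11, 1.11 and 1.10. All 10 markers were higher in replicate 1 of the HFD-fed LKO-labelled group and all 10 in replicate 2 of the CD-fed f/f group. On the log2 scale, centred on each marker's mean, the average marker was 0.13 ± 0.22 in CD-fed f/f, −0.09 ± 0.15 in CD-fed LKO-labelled, −0.22 ± 0.25 in HFD-fed f/f and 0.18 ± 0.41 in HFD-fed LKO-labelled livers. The pooled SD within groups was 0.28, against 0.87 from the lowest to the highest library.

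Differences between groups were tested for each gene with limma on quantile-normalized log2(FPKM + 1) values in 1 fit of the 8 libraries. A gene was called at a Benjamini-Hochberg adjusted p below 0.05 over all 11634 genes. Differences below are on this log2 scale, on which low genes such as Timd4, Adgre1 and Marco change less than in FPKM. The comparisons share libraries, so that the low HFD-fed f/f pair enters both the comparison of genotypes on HFD and that of diets in f/f mice.

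In f/f livers HFD feeding went with lower values of all 10 markers, with a median log2 difference of −0.34 against 0.01 over all tested genes. Timd4 differed by −0.63 (SE 0.12), from 4.25 ± 0.38 FPKM on CD to 2.36 ± 0.30 on HFD, with a limma p of 0.00119 and an adjusted p of 0.0621. Clec4f differed by −0.44 (SE 0.12), from 30.5 ± 3.00 to 21.8 ± 1.51 FPKM, with an adjusted p of 0.135 in limma. C1qa differed by −0.48 (SE 0.19), from 22.3 ± 3.13 to 15.5 ± 3.70 FPKM, with an adjusted p of 0.244. None of the 10 was called, where 1.33% of all tested genes were. Of the markers, 3 (Timd4, Clec4f and C1qa) had an unadjusted limma p below 0.05 toward lower values, against 9.22% of all tested genes. For 7 (Cd68, Clec4f, Vsig4, Csf1r, Timd4, C1qa and C1qb) the diets did not overlap, with HFD lower, against 27.6% of all tested genes. Restricting the test to genes with FPKM above 1 in all 8 libraries, which drops Marco, brought Timd4 to an adjusted p of 0.0360, the only call of a marker under any setting tried. Under all 16 alternatives this p ran from 0.0360 to 0.258. Without replicate 2 of the CD-fed f/f group the median was −0.18 and 9 of 10 markers were lower.

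In LKO-labelled livers the same diet comparison had the opposite sign for all 10 markers, with a median of 0.21 against 0.01 over all genes. Adgre1 was 0.54 (SE 0.25) higher, at 2.10 ± 0.09 FPKM on CD and 3.50 ± 1.46 on HFD, with an adjusted p of 0.272 in limma. C1qb was 0.24 (SE 0.14) higher, at 16.9 ± 0.20 and 19.8 ± 1.89 FPKM, with an adjusted p of 0.372. Timd4 differed by 0.10 (SE 0.12) and Clec4f by 0.05 (SE 0.12), with 95% intervals from −0.18 to 0.38 and from −0.24 to 0.34. None of the markers was called, against 3.02% of all tested genes, and 0 had an unadjusted limma p below 0.05 toward either side, where 11.7% of all tested genes had one toward higher values. Adgre1 and C1qb were the 2 markers whose diets did not overlap, with HFD higher, against 22.9% of all tested genes. The direction rested on 1 library: without replicate 1 of the HFD-fed LKO-labelled group 4 of 10 markers were higher and the median was −0.03.

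On HFD, LKO-labelled livers had higher values than f/f livers for all 10 markers, with a median of 0.39 against −0.00 over all genes. The differences of the 10 ran from 0.31 to 0.54. Cd68 differed by 0.54 (SE 0.17), from 5.02 ± 1.05 FPKM in f/f to 7.62 ± 0.40 in LKO-labelled livers, with a limma p of 0.0182 and an adjusted p of 0.382. Clec4f differed by 0.39 (SE 0.12), from 21.8 ± 1.51 to 28.4 ± 2.03 FPKM, with an adjusted p of 0.381. Timd4 differed by 0.38 (SE 0.12), from 2.36 ± 0.30 to 3.32 ± 0.45 FPKM, with an adjusted p of 0.371. C1qb differed by 0.41 (SE 0.14), from 14.8 ± 2.54 to 19.8 ± 1.89 FPKM, with an adjusted p of 0.406. None was called, as for nearly all genes (0.043% called). These 4 markers had an unadjusted limma p below 0.05 toward higher values, against 5.46% of all tested genes. Together with Vsig4 they were the 5 whose genotypes did not overlap, with LKO-labelled livers higher, against 19.1% of all tested genes. Without replicate 1 of the LKO-labelled group 9 of 10 markers were still higher and the median was 0.14, and without replicate 2 of the f/f group 9 of 10 were higher and the median was 0.26.

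On CD the genotypes differed the other way for 9 of 10 markers, with LKO-labelled livers lower and a median of −0.25 against −0.00 over all genes. Timd4 differed by −0.35 (SE 0.12), from 4.25 ± 0.38 FPKM in f/f to 3.14 ± 0.23 in LKO-labelled livers, with a limma p of 0.0224 and an adjusted p of 0.328. It was the 1 marker with an unadjusted limma p below 0.05 toward lower values, against 6.12% of all tested genes. Cd68 was the exception in sign, at 0.11 (SE 0.17), with 6.52 ± 1.03 and 7.11 ± 1.62 FPKM. None was called, where 0.0172% of all tested genes were. For 5 markers (Adgre1, Vsig4, Timd4, C1qa and C1qb) the LKO-labelled libraries lay below both f/f libraries, against 22.6% of all tested genes. Leaving out replicate 2 of the CD-fed f/f group, the high one, brought the median to −0.05 with 7 of 10 lower.

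**Figure D3:**
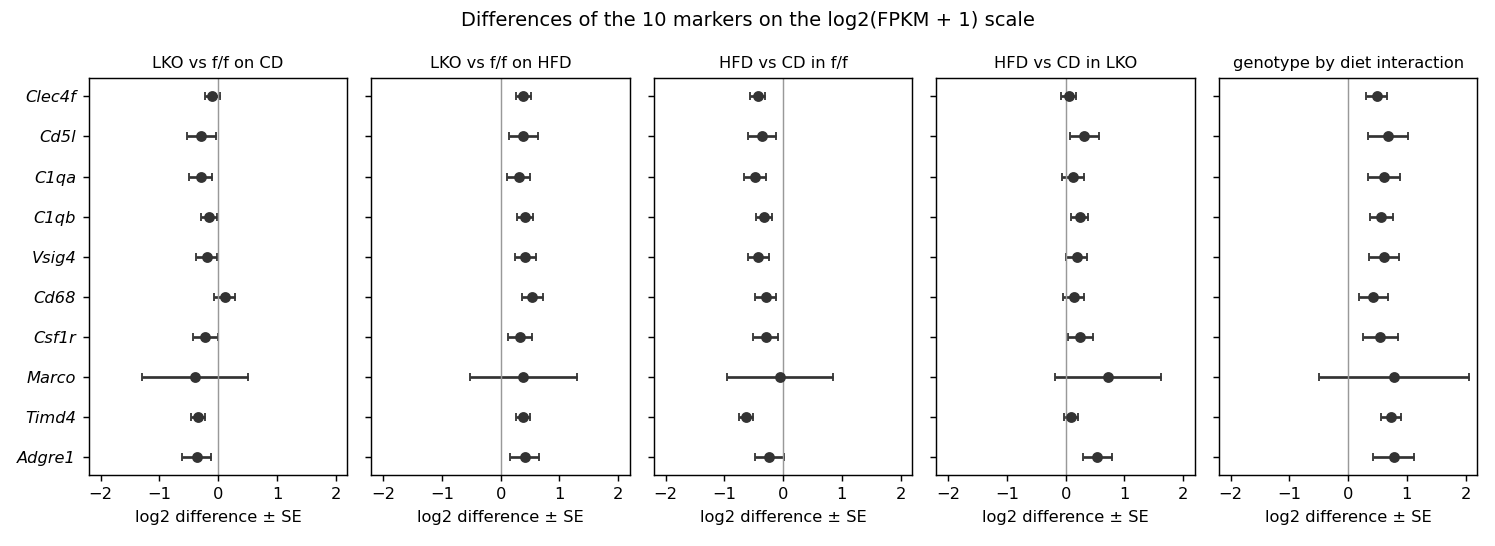
Log2 differences of the 10 markers (points) with their limma SE (bars) in the 4 pairwise comparisons and the interaction, on the log2(FPKM + 1) scale. In f/f livers all 10 lie left of 0 for HFD against CD, and on HFD all 10 lie right of 0 for LKO against f/f, with SE of 0.90 for Marco and no more than 0.25 for the others.

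The change of the genotype difference from CD to HFD, the interaction term, was positive for all 10 markers with a median of 0.61, against 0.01 over all genes. For Timd4 it was 0.73 (SE 0.17, limma p of 0.00355, adjusted p of 0.518) and for C1qb 0.56 (SE 0.19, adjusted p of 0.558). For Vsig4 it was 0.61 (SE 0.25, adjusted p of 0.594) and for Clec4f 0.49 (SE 0.17, adjusted p of 0.575). None was called, against 0.0344% of all tested genes, and these 4 had an unadjusted limma p below 0.05 toward positive values, against 4.35%. Under the alternatives the adjusted p of a marker did not fall below 0.426. Leaving out each library in turn, the median ran from 0.40, without replicate 1 of the HFD-fed LKO-labelled group, to 0.84.

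Averaged over the other factor, the differences of the markers were smaller. For HFD against CD over both genotypes the median was −0.06 with 8 of 10 lower, and Timd4 differed by −0.27 (SE 0.08) with a limma p of 0.0161 and an adjusted p of 0.0935, the 1 marker with an unadjusted p below 0.05 toward lower values, against 13.0% of all tested genes. None of the 10 was called, whereas diet changed 9.89% of all tested genes. For LKO-labelled against f/f livers over both diets the median was 0.05 with 9 of 10 higher, and Cd68 differed by 0.32 (SE 0.12) with a limma p of 0.0350 and an adjusted p of 0.320, the 1 marker with an unadjusted p below 0.05 toward higher values, against 7.18% of all tested genes. None was called, against 0.103% of all tested genes. Both counts rested on single libraries. Of the first, 4 markers were lower without replicate 2 of either HFD-fed group and 5 without replicate 2 of CD-fed f/f. Of the second, 3 markers were higher without replicate 1 of HFD-fed LKO-labelled, 4 without replicate 1 of CD-fed f/f and 5 without replicate 2 of HFD-fed f/f livers.

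A list of 22 further genes of resident macrophages was read in the same comparisons. In f/f livers 19 of 22 were lower on HFD with a median of −0.23, and in LKO-labelled livers 20 of 22 were higher with a median of 0.12. Between genotypes 20 of 22 were higher in LKO-labelled livers on HFD (median 0.23) and 16 of 22 were lower on CD (median −0.16), and the interaction was positive for 20 of 22 (median 0.44). None of the 22 was called in these 5 comparisons, and toward the side of the majority 2, 3, 2, 1 and 5 of them had an unadjusted limma p below 0.05, where 9.22%, 11.7%, 5.46%, 6.12% and 4.35% of all tested genes did. C1qc, the third chain of C1q, stood at 18.1 and 17.3 FPKM in CD-fed f/f, 16.3 and 15.6 in CD-fed LKO-labelled, 13.0 and 11.9 in HFD-fed f/f and 18.7 and 13.9 in HFD-fed LKO-labelled libraries. It differed by −0.45 (SE 0.14, adjusted p of 0.155) for diet in f/f and by 0.37 (SE 0.14, adjusted p of 0.467) for genotype on HFD, with HFD-fed f/f the lowest pair as for C1qb.

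Clec1b, which encodes CLEC-2, a receptor of platelets and Kupffer cells, was 0.43 lower in LKO-labelled livers on CD (SE 0.10, adjusted p of 0.223) and 0.48 higher on HFD than on CD within them (SE 0.10, adjusted p of 0.0601, below 0.05 under 1 of 16 alternatives). Its interaction was 0.64 (SE 0.15, adjusted p of 0.517), and that of Cybb, the catalytic subunit of the phagocyte oxidase, was 0.66 (SE 0.21, adjusted p of 0.558). Cybb was 0.41 higher on HFD in LKO-labelled livers (SE 0.15, adjusted p of 0.169). Ctss, a lysosomal protease, was −0.47 (SE 0.14, adjusted p of 0.144) for HFD against CD in f/f. Ctsb, another lysosomal protease, was 0.31 higher in LKO-labelled livers on HFD (SE 0.08, adjusted p of 0.324). Slc40a1, the iron exporter ferroportin and the 1 gene of the list called in any comparison, rose with HFD over both genotypes by 0.36 (SE 0.07, adjusted p of 0.0309), against the direction of the markers in f/f livers. Hepatocytes and other cells also express Slc40a1 and Ctsb. The call of Slc40a1 held in 7 of 15 alternatives.

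Growth factors and transcription factors of macrophages did not follow the markers, with 7 of 14 tested genes higher in LKO-labelled livers on HFD and a median of 0.00. Cebpb, a factor of hepatocytes and myeloid cells, fell with HFD over both genotypes by 0.55 (SE 0.12, adjusted p of 0.0324). Id3, which Kupffer cells need for their identity, was 1.27 on CD between genotypes (SE 0.37, adjusted p of 0.278), and Spi1, which encodes PU.1, was 0.64 (SE 0.23, adjusted p of 0.334). Maf, which Kupffer cells share with endothelium, was 0.41 for HFD in LKO-labelled livers (SE 0.14, adjusted p of 0.153). The ligand genes Csf1 and Il34 stood at 1.82 to 3.07 and 0.701 to 2.03 FPKM over the 8 libraries.

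Among phagocytic receptors 9 of 11 tested genes were higher in LKO-labelled livers on HFD (median 0.13), and the 2 called in any comparison are expressed by hepatocytes as well. Scarb1, the receptor of high-density lipoprotein, rose with HFD by 0.40 in f/f (SE 0.07, adjusted p of 0.0487), by 0.37 in LKO-labelled livers (SE 0.07, adjusted p of 0.0420) and by 0.38 over both (SE 0.05, adjusted p of 0.00800). The call over both held under all 15 alternatives and that in LKO-labelled livers under 2 of 16. Cd36, a fatty acid translocase, stood at 15.3 and 19.2 FPKM in CD-fed f/f, 28.9 and 19.5 in CD-fed LKO-labelled, 17.0 and 29.3 in HFD-fed f/f and 63.7 and 60.2 in HFD-fed LKO-labelled libraries. The HFD-fed LKO-labelled pair was above all others, and the f/f libraries overlapped between the diets. Cd36 was 1.49 for genotype on HFD (SE 0.28, adjusted p of 0.215), 1.40 for HFD in LKO-labelled livers (SE 0.28, adjusted p of 0.0511) and rose with HFD by 0.89 over both genotypes (SE 0.20, adjusted p of 0.0374). Clec7a, which encodes the glucan receptor dectin-1, was 0.38 (SE 0.12, adjusted p of 0.382) and Mertk, a receptor for dying cells, −0.23 (SE 0.10, adjusted p of 0.512) for genotype on HFD. Of the classical complement genes outside C1q, C1ra fell by 0.29 (SE 0.05, adjusted p of 0.0221) and Serping1 by 0.24 (SE 0.05, adjusted p of 0.0402) with HFD over both genotypes. Both are made mainly by hepatocytes, and neither call of these 2, nor those of Cd36 and Cebpb, held under more than 8 of 15 alternatives.

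**Figure D4:**
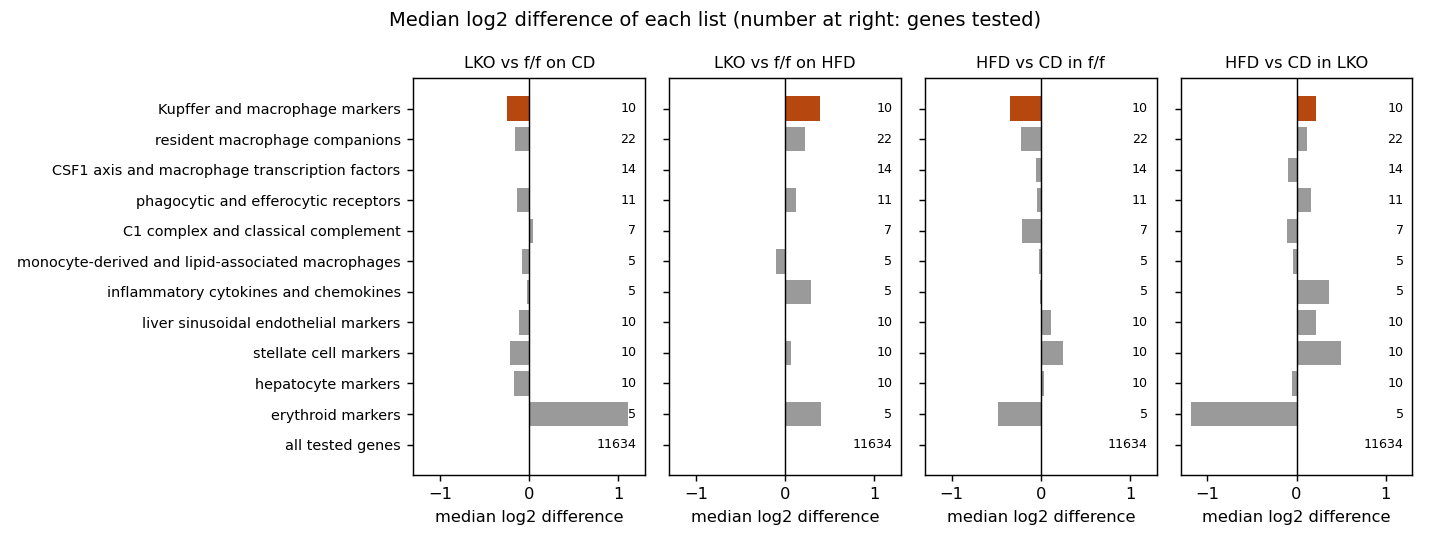
Median log2 difference (horizontal axis, log2(FPKM + 1) scale) of the 10 markers (orange) and of other lists (grey) in the 4 pairwise comparisons, with the number of genes tested at the right edge. The 10 markers stand at −0.25, 0.39, −0.34 and 0.21 and the 22 further resident macrophage genes at −0.16, 0.23, −0.23 and 0.12.

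Markers of other cells that bulk liver holds were read in the same libraries. The summed FPKM of the 10 macrophage markers was 120 to 153 in CD-fed f/f, 113 to 119 in CD-fed LKO-labelled, 89.7 to 112 in HFD-fed f/f and 115 to 154 in HFD-fed LKO-labelled libraries. That of 10 sinusoidal endothelial markers was 60.0 to 61.8, 48.4 to 63.4, 65.2 to 71.4 and 59.3 to 74.1 in the same order, and none was at 0. That of 10 stellate cell markers was 107 to 122, 66.3 to 96.1, 142 to 188 and 145 to 177, again with none at 0. In f/f livers all 10 endothelial (median 0.12) and 7 of 10 stellate markers (median 0.25) were higher on HFD, where all 10 macrophage markers were lower. In LKO-labelled livers all 10 endothelial (median 0.22) and 8 of 10 stellate markers (median 0.50) were higher on HFD, as were the macrophage markers. On CD, 8 of 10 endothelial (median −0.12), 8 of 10 stellate (median −0.22) and 8 of 10 hepatocyte markers (median −0.17, with Alb at 0 in 1 LKO-labelled library) were lower in LKO-labelled livers, as were 9 of 10 macrophage markers. On HFD, 5 of 10 endothelial (median 0.01), 7 of 10 stellate (median 0.07) and 5 of 10 hepatocyte markers (median −0.00) were higher in LKO-labelled livers. With HFD over both genotypes Lyve1, of sinusoidal endothelium, rose by 0.76 (adjusted p of 0.0213 in limma), and the stellate markers Ecm1, Dcn, Reln and Colec11 rose by 1.01, 0.78, 0.62 and 0.52 (adjusted p of 0.0258, 0.0283, 0.0293 and 0.0367). Replicate 1 of the HFD-fed LKO-labelled group had the highest sum of macrophage markers and of endothelial markers. Without Marco its macrophage sum was 145, against 150 in replicate 2 of the CD-fed f/f group. The sum of 9 hepatocyte markers without Alb lay between 17631 and 19294 in all 8 libraries, although single markers changed with diet. Over both genotypes Cyp2e1, Ttr, Hnf4a and Apob were higher on HFD by 0.92, 0.39, 0.28 and 0.26 after quantile normalization (adjusted p of 0.00313, 0.0261, 0.0475 and 0.0381 in limma). In FPKM, mean Ttr went from 4010 to 4115 in f/f and from 4432 to 4251 in LKO-labelled livers, so it did not rise in both. Mean Apob went from 825 to 853 and from 791 to 840. Alb was listed at 0 in 4 of the 8 libraries that were normalized, and the part of this in these differences was not tested. Tat and Pck1 differed by −1.14 and −0.67 (adjusted p of 0.00606 and 0.0479), and Apoa1, Cps1 and Ass1 were not called. The part of these cells in the results on macrophage markers was not tested.

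Erythroid markers differed widely between libraries of 1 group, from 85.9 to 420 in CD-fed f/f, 247 to 502 in CD-fed LKO-labelled, 65.8 to 228 in HFD-fed f/f and 121 to 198 in HFD-fed LKO-labelled libraries. Alas2, the erythroid enzyme of heme synthesis, fell with HFD over both genotypes by 0.56 (SE 0.07, adjusted p of 0.00936 in limma). Red cells and the macrophages that clear them are both present in liver, and the part of blood content in the marker values was not tested. Markers of recruited and lipid-associated macrophages differed in level. Of 12, 7 (Ccr2, Cx3cr1, Itgax, Trem2, Gpnmb, Chil3 and Ms4a7) did not exceed 0.701 FPKM in any library and were not tested. Over the 8 libraries Spp1 stood at 15.9 to 28.9, Cd9 at 5.45 to 11.8 and Plac8 at 3.16 to 4.17 FPKM. Lgals3 stood at 1.23 to 2.13 and Ly6c2 at 0.231 to 1.32. Of the 5 tested, 2 were higher and 3 lower in LKO-labelled livers on HFD. All 10 lymphocyte markers were at or below 0.938 FPKM, with sums of 2.27 to 3.68 per library, and 6 neutrophil markers summed to 1.24 to 3.29, with Ly6g listed at 0 in all 8 libraries. The sum of 6 cholangiocyte markers was 17.9 to 31.5, most of it from Spp1, which is also on the list of recruited and lipid-associated macrophages. Krt19, Krt7, Epcam and Cldn4 did not exceed 0.78 FPKM and were not tested. The sum of 6 adipocyte markers was 6.72 to 8.26 in CD-fed f/f, 7.84 to 9.90 in CD-fed LKO-labelled, 9.93 to 11.1 in HFD-fed f/f and 14.2 to 15.9 in HFD-fed LKO-labelled libraries, highest in the last group. Of these 6, Fabp4 and Cfd were tested and the other 4 (Adipoq, Plin1, Lep and Retn) did not exceed 0.377 FPKM and were at 0 in at least 1 library each. The part of adipose tissue in the marker values was not tested.

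The genes whose course over the 8 libraries was most like the average marker were sought among 886 other genes with FPKM above 1 in every library. Their log2 range also had to be at least that of the average marker, Marco included, which was 0.867. Most markers had a narrower range themselves, such as Cd5l at 0.805 and Clec4f at 0.606. Genes that varied as little, macrophage genes among them, were therefore not eligible. The measure was the root mean square difference of centred log2 FPKM over the 8 libraries, with a median of 0.46 over the 886. Of the 886, the 10 nearest were Mapre1 and Spc25 (both 0.16), Lyz2 (0.19), Crtc3 (0.20), Tyrobp and Scp2-ps2 (both 0.21), Trim2 and Ddc (both 0.22), and Pam and Col14a1 (both 0.23). Lyz2, the macrophage lysozyme, and Tyrobp, the adaptor of myeloid receptors, are 2 of the 22 further macrophage genes. Lyz2 stood at 29.7 and 32.7 FPKM in CD-fed f/f, 31.9 and 22.7 in CD-fed LKO-labelled, 23.2 and 18.3 in HFD-fed f/f and 38.1 and 18.1 in HFD-fed LKO-labelled libraries. Like the markers, it was highest in replicate 1 of the HFD-fed LKO-labelled group, but its partner library was the lowest of 8. The markers themselves lay between 0.10 (Cd5l and C1qa) and 0.19 (Clec4f) from their average, except Marco at 0.68. Each marker is part of that average, so these distances cannot be set against those of other genes.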

How the data were processed

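Liver RNA of 8 libraries was sequenced with paired ends after poly(A) selection. Per the labels and the methods of the study, the authors trimmed reads with cutadapt 1.0, aligned them to GRCm38 with TopHat2 2.0.7 and estimated expression with Cufflinks (version not given in the sources used here), and the deposited values are FPKM, with no read counts. FPKM scales fragments by transcript length and mapped fragments, so the depth behind a value is not known from the table, and no counting interval is given. Without read counts, count tests were not run.

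Genes were matched to symbols and coordinates in GENCODE M21. The test took genes whose FPKM exceeded 1 in any library, and log2(FPKM + 1) was quantile normalized. All 4 groups were fitted together with limma 3.58.1 in R 4.3.3 (mean-variance trend, two-sided, 4 residual and 2.8 prior degrees of freedom). The sample permutation of the study was not run here. It shuffled the samples of all groups to estimate null distributions of the T-statistic and the log2 difference. An exact permutation test of 1 gene with 2 libraries against 2, a different procedure, cannot give less than 0.333. That floor is not one of the study's permutation. The script was tested on simulated data. Labels do not tie a replicate to an animal; libraries pool different mice.

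The members and all lists were chosen with earlier results of these data known, and lists are described by counts and medians with no test. Named are all 10 markers and, of the 886 eligible genes, the 10 most like the average marker. From the lists of macrophage genes, those called in a comparison and those with the lowest unadjusted p are named. Other cell type lists are given by their sums and, for hepatocytes, non-parenchymal and red cells, the genes called over both genotypes. A few other genes are named for their level alone. The alternatives were no normalization, median centring, a pseudocount of 0.1, a stricter and no filter on low FPKM, no trend, the replicate number as a block, the libraries of 2 groups alone, and each library left out. A gene that the rule names is not reported here.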

Additional observations from a re-analysis of the deposited data

How the results depend on the processing

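The count of called markers stayed at 0 of 10 in each of the 7 comparisons under every alternative except 1: with FPKM above 1 in all 8 libraries, 1 of 9 tested markers (Timd4, adjusted p of 0.0360 in limma) was called for HFD against CD in f/f. Without Marco, an alternative chosen after seeing the data, the medians were 0.39, −0.22, −0.36, 0.19 and 0.61 for genotype on HFD, genotype on CD, diet in f/f, diet in LKO and the interaction. As each library was left out, markers higher on HFD in LKO ran from 4 to 10, markers lower on HFD over both genotypes from 4 to 10, and markers higher in LKO over both diets from 3 to 10. Single markers crossed 0 in the same way: Marco from −0.81 to 1.58 (genotype on HFD), −1.23 to 0.44 (genotype on CD), −0.83 to 0.72 (diet in f/f), −0.47 to 1.92 (diet in LKO) and −0.41 to 1.98 (interaction). On CD between genotypes Cd68 ran from −0.0892 to 0.307, Clec4f from −0.226 to 0.031 and Cd5l from −0.612 to 0.0378. For diet in LKO, Clec4f ran from −0.0791 to 0.180, Cd68 from −0.0637 to 0.332, Vsig4 from −0.0802 to 0.462, Csf1r from −0.0404 to 0.541, Timd4 from −0.0174 to 0.215 and C1qa from −0.0675 to 0.320. Where a group is left with 1 library, that library is assumed to vary like the other groups. Counts of all called genes moved more: 155 for diet in f/f (5 to 323 under the alternatives), 351 for diet in LKO (0 to 570), 1151 over both genotypes (374 to 1304), 5 for genotype on HFD (4 to 24), 2 on CD (0 to 19), 12 over both diets (7 to 50) and 4 for the interaction (0 to 21). The lower ends for diet came from fitting the 2 groups alone or leaving out a library, which use fewer samples. Same-numbered libraries are of different mice, and the correlations of their deviations ran from −0.00 to 0.15 over the 6 pairs of groups, so the numbers were not taken as pairing. With the replicate number as a block, called genes numbered 34 for diet in f/f, 223 for diet in LKO, 882 over both genotypes, 7 and 2 for genotype on HFD and CD, 9 over both diets and 3 for the interaction, 0 markers were called, and Timd4 in f/f had an adjusted p of 0.0823. With 2 pooled libraries per group, differences as small as the medians here lie near the spread between libraries.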

Other observations

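Inflammatory genes that macrophages can make were mostly near the limit of the table, but Il18 stood at 8.31 to 11.1 FPKM over the 8 libraries. Of 13 cytokine and chemokine genes, 8 stayed at or below 0.534 FPKM in every library and were not tested, and Il6 was listed at 0 in all 8. Of the 5 tested, Cxcl10, an interferon-induced chemokine, stood at 1.54 and 2.60 FPKM in CD-fed f/f, 1.96 and 2.22 in CD-fed LKO-labelled, 2.58 and 1.53 in HFD-fed f/f and 3.38 and 3.22 in HFD-fed LKO-labelled libraries. The last pair was the highest, and the genotype difference on HFD was 0.52 (SE 0.21, adjusted p of 0.486 in limma). Lgals3 and Cd9 are from the list of recruited and lipid-associated macrophages. In the same comparison Lgals3, a lectin of macrophages, differed by 0.38 (SE 0.13, adjusted p of 0.398). Cd9, a tetraspanin that many liver cells express, differed by −0.52 (SE 0.20, adjusted p of 0.474). Il1b differed by −0.40 for HFD against CD over both genotypes (SE 0.13, adjusted p of 0.0986), and Tgfb1 by 0.55 for the diet in LKO-labelled livers (SE 0.16, adjusted p of 0.124). None of the 5 tested cytokine and chemokine genes, nor Lgals3 or Cd9, was called in any of the 7 comparisons.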
